A study of Mus musculus and Homo sapiens with 12 samples.

Results

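The genes described here encode the proteins of the cytosolic ribosome. They were chosen by symbol, as RPL or RPS followed by a number (with P before it for the stalk proteins) or by A, and with or without a closing A, X or L. A mean of at least 1 FPKM (fragments scaled to gene length and library size) over all libraries of a table was also required. Of 11513 genes listed for human, 78 had such a symbol and 70 passed, 41 of the large and 29 of the small subunit. All 69 of the 10430 genes listed for mouse that had such a symbol passed, 41 of the large and 28 of the small subunit. Just inside the limit in human was RPS26 with a mean of 1.55 FPKM. The 8 genes outside the limit were left out of the main tests. Among them were RPL17 at 0.695 FPKM and, lower, RPS27L, RPL36A, RPL21, RPL7, RPL39L and RPS10, down to 0.297 FPKM.

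The human libraries came from KOPTK1, a cell line established from T-cell acute lymphoblastic leukaemia (T-ALL), kept for 72 h with the gamma-secretase inhibitor Compound E (gSI) or with DMSO, its carrier, with 2 libraries each. The mouse libraries came from leukaemic cells carrying NOTCH-delta E, an activated NOTCH1, that were passed to a second round of mouse hosts and sorted by GFP from the spleen after 3 weeks on a diet with 0, 0.4, 0.8 or 8 g/kg valine. The strain is given as C57BL/6, and 8 g/kg was the control diet. Each diet had 1 library named TALL2 and 1 named TALL3, and what these names mark is not stated. All 4 mouse groups carry the activated NOTCH1, and KOPTK1 is a single line. The protocol for the mice gives the middle amounts as 0.8 and 0.4 g/L of drinking water, so the diets are used here only as ranked groups. Nothing in the labels says that libraries of a group came from separate cultures or animals, so the p-values cover no more than the spread among these libraries, and that spread may be technical.

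A eukaryotic ribosome joins a small subunit, which decodes the mRNA, to a large subunit, which forms the peptide bond. Each subunit needs about equal amounts of every one of its proteins, and growing leukaemic cells spend much of their transcription and translation on them. The mRNAs of these proteins usually begin with a C followed by a run of pyrimidines, the 5′ terminal oligopyrimidine (TOP) motif, through which mTOR signalling sets how much they are translated. Transcription of the same genes is raised by MYC, which NOTCH1 induces in T-ALL, and NOTCH1 itself is freed from the membrane by gamma-secretase. Valine is an essential amino acid, and its lack is sensed through mTOR complex 1 and through GCN2.

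The reads that could be recovered from the FPKM steps numbered 22939478 to 42245079 in KOPTK1 libraries and 14222895 to 37687253 in mouse libraries. All 14 T-ALL markers (such as CD3E, LCK and TCF7) were at 1 FPKM or more in every library of both systems. Their summed level was 252 and 266 FPKM in gSI libraries and 436 and 421 FPKM in DMSO libraries. HES1, a direct NOTCH target, was at 0.0253 and 0.0431 FPKM in gSI libraries, against 6.72 and 6.18 FPKM in DMSO libraries. In mouse the summed level of the 13 neutrophil markers listed, of 14, was 562 (TALL2) and 332 (TALL3) FPKM with 0 g/kg, 12.3 and 76.1 FPKM with 0.4 g/kg, 13.1 and 12.2 FPKM with 0.8 g/kg, and 0.949 and 10.8 FPKM with 8 g/kg. Summed macrophage and monocyte markers were 37.6 and 36.5 FPKM with 0 g/kg and 6.25 to 16.7 FPKM in the other diets. The 11 erythroid markers listed, of 15, summed to 62.6 FPKM in both libraries with 0 g/kg. They summed to 121 and 115 FPKM with 0.4 g/kg, 99.9 and 81.6 FPKM with 0.8 g/kg, and 180 and 340 FPKM with 8 g/kg. The highest erythroid marker with 0 g/kg was Tfrc, at a mean of 51.2 FPKM, and with 8 g/kg it was Hbb-bs, at 108 FPKM. With 0 g/kg all 13 neutrophil markers were at 1 FPKM or more in both libraries, while with 8 g/kg 0 were and 1 was at 0 in both. The 5 B-cell markers listed, of 12, summed to 53.4 and 120 FPKM with 0 g/kg and to 15.6 to 31.2 FPKM in the other diets. In KOPTK1, 1 neutrophil marker and 0 macrophage markers were listed. The part of these other cells in the results with 0 g/kg was not tested. In bulk samples, fewer cells of a type and less RNA per cell cannot be told apart.

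RefSeq promoter entries (assembly GRCm38.p6) were found for 31 of the 41 large-subunit and 22 of the 28 small-subunit genes of the mouse. The 30 bases centred on the annotated mouse start are shown for 6 members that stand out in the results. Rpl12, Rps26 and Rps18 do so mainly as the human genes under gSI, whose sequences were not analysed here. The TOP-like words (CTTTC or the variant CTTCC, and likewise CTCTT or the variant CCTTT) on the gene's strand are in capitals.
Rpl5 (chr5:107900513-107900542, plus strand): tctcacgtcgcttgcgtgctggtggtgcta
Rpl31 (chr1:39367836-39367865, plus strand): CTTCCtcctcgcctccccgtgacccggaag
Rpl12 (chr2:32961697-32961726, plus strand): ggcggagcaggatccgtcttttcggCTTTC
Rps6 (chr4:86857353-86857382, minus strand): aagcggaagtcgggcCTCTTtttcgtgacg
Rps26 (chr10:128626492-128626521, minus strand): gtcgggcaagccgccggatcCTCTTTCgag
Rps18 (chr17:33955651-33955680, minus strand): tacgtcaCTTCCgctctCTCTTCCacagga
A TOP-like word stood on the gene's strand in 43.2% of 37 large-subunit start windows and in 40.7% of 27 small-subunit windows, against 14.6% of 32851 windows of all genes. On the other strand the shares were 18.9%, 3.70% and 15.4%. Words were counted anywhere in the window, also before the annotated start, as in Rpl31, or some bases after it. Words so placed would not begin the mRNA at that start. The window of Rpl5 held none of these words. In the GENCODE M21 annotation, however, Rpl5 begins at chr5:107900502, which lies before this window and was not searched. The word CCGGAAG, searched on both strands over the 300 bases of each promoter entry, was present in 35.1% of large-subunit and 40.7% of small-subunit entries, against 8.86% of all entries. CACGTG, the core of the E-box that MYC binds, was present in 16.2% and 3.70%, against 7.15% of all entries. The words overlap among themselves, annotated starts can be off by a few bases or more, and a match is a description of the letters only.

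The first comparison asked how the ribosomal protein mRNAs of KOPTK1 changed when gamma-secretase was blocked. Most of them fell: the median member lay at 0.731 of its DMSO level in the large subunit and at 0.747 in the small subunit, by the ratio of mean FPKM. In limma, 36 of 41 large-subunit genes fell and 0 rose, and 19 of 29 small-subunit genes fell and 1 rose. Of all 6679 tested genes 30.3% fell and 22.8% rose. At an unadjusted limma p under 0.05, 36 and 21 genes of the large and small subunit were lower, against 33.0% of all genes, and 0 and 1 were higher, against 25.3%. Fold changes were taken on log2(FPKM + 1), a scale that makes changes of low genes look smaller. Their median was -0.44 in the large and -0.35 in the small subunit, against -0.03 over all tested genes. The gSI libraries lay below both DMSO libraries in 37 large-subunit and 22 small-subunit genes, against 42.4% of all tested genes, and above both in 0 and 2, against 33.9%. With limma's voom on recovered reads the median of all genes was higher by 0.13, so that 63.6% of all calls were higher against 43.0% above, and the members' medians relative to all genes were -0.41 and -0.37, against -0.41 and -0.32 on the FPKM. Under quantile normalisation 44 of the 56 member calls were kept, and 47 were kept without gSI replicate 1.

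**Figure D1:**
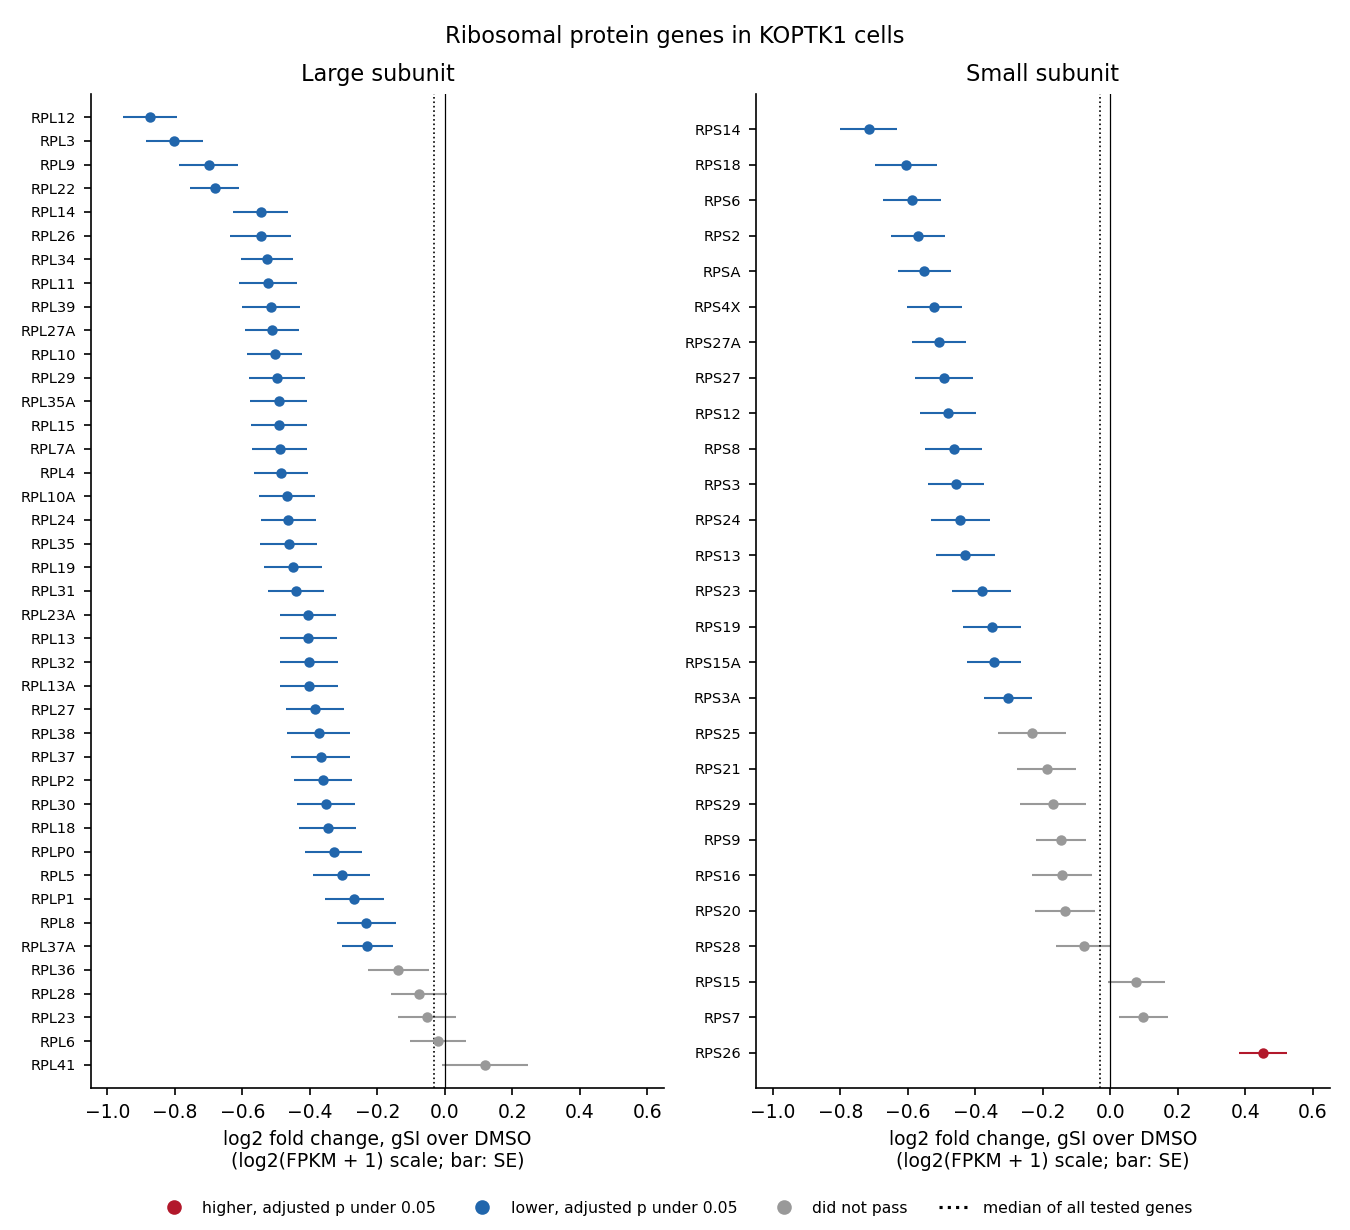
Log2 fold change of each ribosomal protein gene in KOPTK1, gSI over DMSO (x axis, log2(FPKM + 1) scale, 2 libraries per condition), with its standard error as a bar and the genes down the y axis. All 36 large-subunit genes that fell and those of the small subunit are coloured as lower at an adjusted p under 0.05, except 2 small-subunit genes that are not drawn, RPS26 is coloured as higher, and the dotted line is the median of all tested genes at -0.03.

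The summed level was lower too. Large-subunit FPKM summed to 2041 and 2179 in gSI libraries, against 2762 and 2810 in DMSO libraries. Small-subunit FPKM summed to 1258 and 1364 in gSI libraries, against 1700 and 1755 in DMSO libraries. Both gSI sums lay below both DMSO sums in each subunit. As a share of the recovered reads, the large subunit took 1.25% and 1.33% in gSI libraries, against 1.49% and 1.63% in DMSO libraries, and the small subunit took 0.696% and 0.750% in gSI libraries, against 0.837% and 0.936% in DMSO libraries. As a share of the FPKM sum the order was less clear, at 2.90% and 3.31% for the large subunit in gSI libraries, against 3.03% and 4.23% in DMSO libraries. The FPKM sum of DMSO replicate 1, at 91046, stood apart from the 65773 to 70450 of the other libraries.

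**Figure D2:**
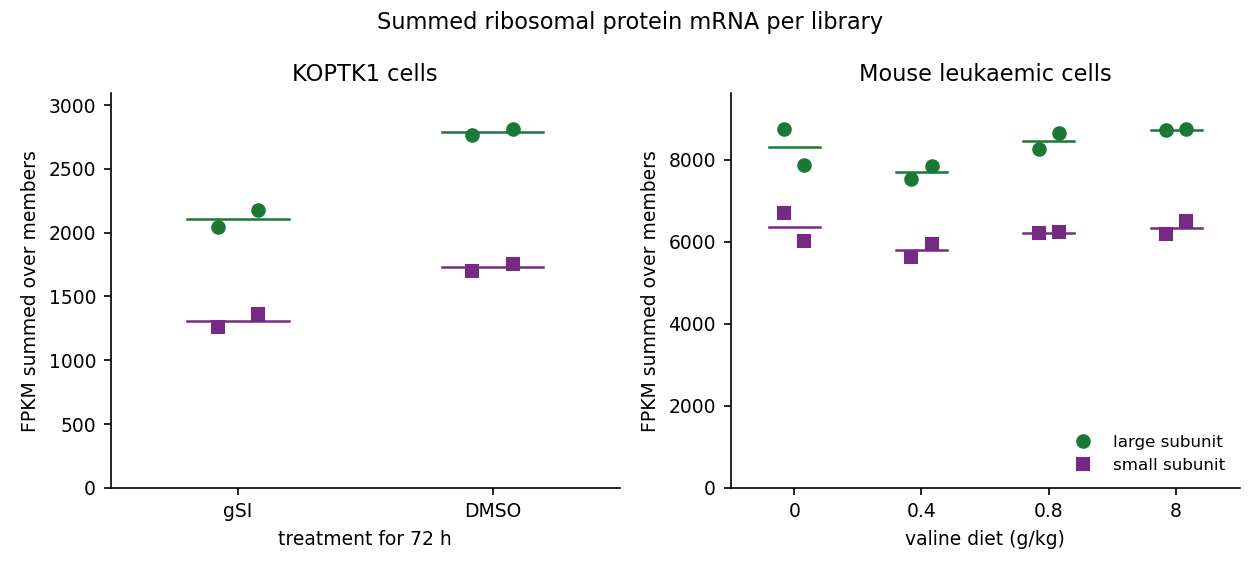
FPKM summed over the member genes of each subunit (y axis, from 0), 1 point per library and the mean as a line, for KOPTK1 by treatment and for mouse leukaemic cells by diet in g/kg valine. The 2 gSI libraries lie below the 2 DMSO libraries in both subunits, at 2041 and 2179 against 2762 and 2810 FPKM in the large one, while the mouse diets lie between 7533 and 8741 FPKM in the large subunit.

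In the large subunit, RPL12, which sits at the base of the stalk where elongation factors bind, had the lowest fold change on this scale, while by the ratio of mean FPKM RPL22 was lowest, at 0.512, against 0.533 for RPL12. RPL12 was at 19.0 and 19.5 FPKM in gSI libraries, against 35.7 and 36.5 FPKM in DMSO libraries. Its log2 fold change was -0.87 (SE 0.0811, limma with Benjamini-Hochberg adjustment, adjusted p = 1.0e-09), and both conditions stood well apart. RPL3, which reaches towards the peptidyl transferase centre, was at 64.4 and 65.0 FPKM in gSI libraries, against 113 and 114 FPKM in DMSO libraries. Its fold change was -0.80 (SE 0.0838, adjusted p = 8.9e-09). RPL9 was at 22.5 and 19.3 FPKM in gSI libraries, against 35.4 and 33.5 FPKM in DMSO libraries, a fold change of -0.70. RPL22, an RNA-binding member needed for the development of T cells in mouse and dispensable for translation itself, was at 1.82 and 1.68 FPKM in gSI libraries, against 3.64 and 3.20 FPKM in DMSO libraries. Its fold change was -0.68 (SE 0.0733, adjusted p = 1.5e-08). Its paralogue RPL22L1, outside the symbol rule, fell as well, to 6.13 and 6.36 FPKM in gSI libraries, against 11.9 and 11.6 FPKM in DMSO libraries.

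The other named large-subunit genes fell by less. RPL11 and RPL5, which join the 5S rRNA before entering the large subunit and which bind MDM2 when assembly is disturbed, had fold changes of -0.52 and -0.31. RPL5 was at 46.2 and 50.2 FPKM in gSI libraries, against 59.7 and 59.9 FPKM in DMSO libraries. The RPL5 call was lost under quantile normalisation, with a fold change of -0.03 (limma adjusted p = 0.622), and without gSI replicate 1 (adjusted p = 0.0883). RPL10, which joins late and is recurrently mutated in T-ALL, was at 5.42 and 5.98 FPKM in gSI libraries, against 7.96 and 9.06 FPKM in DMSO libraries (fold change -0.50). The stalk proteins RPLP0, RPLP2 and RPLP1 had fold changes of -0.33, -0.36 and -0.27. RPLP1 passed in 9 of 13 alternative settings. Its call was lost under quantile normalisation (-0.06, limma adjusted p = 0.434), without gSI replicate 1 (-0.17, adjusted p = 0.260) and without either DMSO library (adjusted p = 0.0776 and 0.0830). RPL8, which lies near the peptidyl transferase centre, was at 290 and 320 FPKM in gSI libraries, against 348 and 369 FPKM in DMSO libraries. It passed narrowly, with a fold change of -0.23 (adjusted p = 0.0289), and passed in only 6 of 13 alternative settings, with adjusted p up to 0.582.

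The other 5 members of the large subunit did not pass. RPL36, RPL28, RPL23 and RPL6 had fold changes of -0.14, -0.08, -0.05 and -0.02. RPL23, which also binds MDM2, was at 76.6 and 77.8 FPKM in gSI libraries, against 83.9 and 76.6 FPKM in DMSO libraries, so that the conditions overlapped. RPL41, which encodes a very short protein, was at 2.70 and 4.85 FPKM in gSI libraries, against 2.74 and 3.91 FPKM in DMSO libraries. It rested on 112 and 295 reads in gSI libraries and 80 and 136 reads in DMSO libraries, the fewest of the large subunit. Without gSI replicate 1 it was called higher, with a fold change of 0.45 (limma adjusted p = 0.000995).

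In the small subunit the falls reached about the same size. RPS14, the gene whose loss underlies the anaemia of the 5q- syndrome, was at 30.8 and 33.9 FPKM in gSI libraries, against 51.8 and 55.6 FPKM in DMSO libraries. Its fold change was -0.72 (SE 0.0851, adjusted p = 8.5e-08), with no overlap. RPS18 was at 39.9 and 45.4 FPKM in gSI libraries, against 60.7 and 70.2 FPKM in DMSO libraries (fold change -0.61). RPS6, the substrate of the S6 kinases, was at 249 and 264 FPKM in gSI libraries, against 390 and 382 FPKM in DMSO libraries (fold change -0.59). RPS2 and RPSA, neighbours in the assembled subunit, had fold changes of -0.57 and -0.55, and RPS27A, made as a fusion with ubiquitin, and RPS27 had -0.51 and -0.49. RPS19, the gene most often mutated in Diamond-Blackfan anaemia, had -0.35 and was at 29.7 and 31.4 FPKM in gSI libraries, against 36.5 and 42.0 FPKM in DMSO libraries. Its call was lost under quantile normalisation, with -0.18 (limma adjusted p = 0.165).

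RPS26, which lies near the channel through which the mRNA leaves the ribosome, moved against the rest. It was at 1.73 and 2.18 FPKM in gSI libraries, against 1.26 and 1.05 FPKM in DMSO libraries. Both gSI libraries lay above both DMSO libraries, and the fold change was 0.45 (SE 0.0703, adjusted p = 5.3e-06). It rested on 131 and 242 reads in gSI libraries and on 67 and 67 reads in DMSO libraries, the fewest of all human members. It passed in all 12 alternative settings in which it was tested. Its sharing of reads with pseudogenes, of which ribosomal protein genes have many, was not analysed here for human genes.

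The other 9 small-subunit genes did not pass. RPS25, which many viral internal ribosome entry sites require, had a fold change of -0.23 (adjusted p = 0.055) and was at 40.6 and 54.7 FPKM in gSI libraries, against 54.2 and 56.9 FPKM in DMSO libraries, where the first gSI library is low and the second is close to the DMSO libraries. Without gSI replicate 2 it was called lower, with -0.44 (limma adjusted p = 0.00142). RPS15 and RPS7 had positive fold changes of 0.08 and 0.10. RPS7 was at 3.30 and 3.46 FPKM in gSI libraries, against 3.04 and 3.15 FPKM in DMSO libraries, so the conditions did not overlap, but its adjusted p was 0.269. RPS28, RPS20, RPS16, RPS9, RPS29 and RPS21 lay between -0.08 and -0.19. These 9 genes had a median of 5170 mean recovered reads per library, and the 19 that fell had a median of 7153.

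Human FPKM rest on a gene length with a median of 29957 bp over all listed genes, far above transcript length. Among the members RPL37A had 80991 bp. Apart from the limit of 1 FPKM, human FPKM are therefore compared here within a gene and not between human genes. Whether reads in introns were counted is not given in the sources used here, so the fold changes may not be those of mature mRNA alone.

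Other genes of translation were read from lists written by function, several of which share members. Of 22 other mRNAs known to carry a TOP motif 17 fell and 0 rose, against 30.3% and 22.8% of all tested genes. Their median was -0.35, against -0.03 over all tested genes. EEF1B2, an exchange factor of elongation, fell by 0.84, and EIF3E, a subunit of the initiation factor eIF3, by 0.74. Of 30 initiation factors 19 fell and 4 rose (median -0.20), against the same 30.3% and 22.8%. The largest changes were in EIF2S3, the gamma subunit of eIF2, which fell by 0.81, and in EIF3E. Of 8 elongation and release factors 4 fell, EEF1A1 among them with -0.56, and 1 rose (median -0.17), and of 9 chaperones and importers of ribosomal proteins 5 fell, with NAP1L1 at -0.70 and IPO7 at -0.39, and 1 rose (median -0.20), again against 30.3% and 22.8% of all tested genes.

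Of 15 regulators of TOP mRNAs 6 fell and 3 rose (median 0.03), close to the 30.3% and 22.8% of all tested genes. EIF4EBP1, a repressor of cap-dependent initiation under mTOR, fell by 0.46 and MLST8, an mTOR complex subunit, by 0.38. Of 13 genes that deal with stalled or collided ribosomes 3 fell and 2 rose (median -0.05), shares below those of all tested genes, with EDF1, a sensor of collisions, at -0.32 and EIF4E2 at 0.29. Among 7 ribosomal proteins and relatives whose names the symbol rule does not catch, 3 fell (RPL22L1 by 0.81, FAU by 0.38, GNB2L1 by 0.32), 2 rose (RPL7L1 by 0.26, RPS19BP1 by 0.22) and RPL36AL (-0.12) was among those that did not pass. GNB2L1, RPL7L1, RPS19BP1 and RPL36AL are named with their values already seen.

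In mouse leukaemic cells the levels of members spread widely, and members that share more sequence with other genes tended to have lower levels. Rpl8 had the highest mean of the large subunit at 1908 FPKM and Rpl36a the lowest at 2.83 FPKM. In the small subunit Rps12 was lowest at 1.08 FPKM, although a ribosome holds about equal amounts of each protein. For each gene, the share of 50-base stretches of its longest coding transcript that also occur in transcripts of another gene was counted in the GENCODE M21 annotation (GRCm38), and 68 of 69 members shared stretches with at least 1 pseudogene. The 31 members with at least 50% of stretches shared had a median of 18.3 FPKM, and the 38 with less had a median of 78.7 FPKM. The Spearman correlation of level and shared percent was -0.31 over 41 large-subunit genes and -0.52 over 28 small-subunit genes, as a description over genes. Rpl8 shared 6.49%, while Rps6 (2.16 FPKM) shared 84.6% and Rps12 83.6%. Rplp1, at 1414 FPKM with 60.0% shared, and Rpl9, at 3.24 FPKM with 16.7% shared, went the other way. How reads that match several genes were counted is not given in the sources used here, so low FPKM of a member with a large shared percent cannot be told apart from lost reads.

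**Figure D3:**
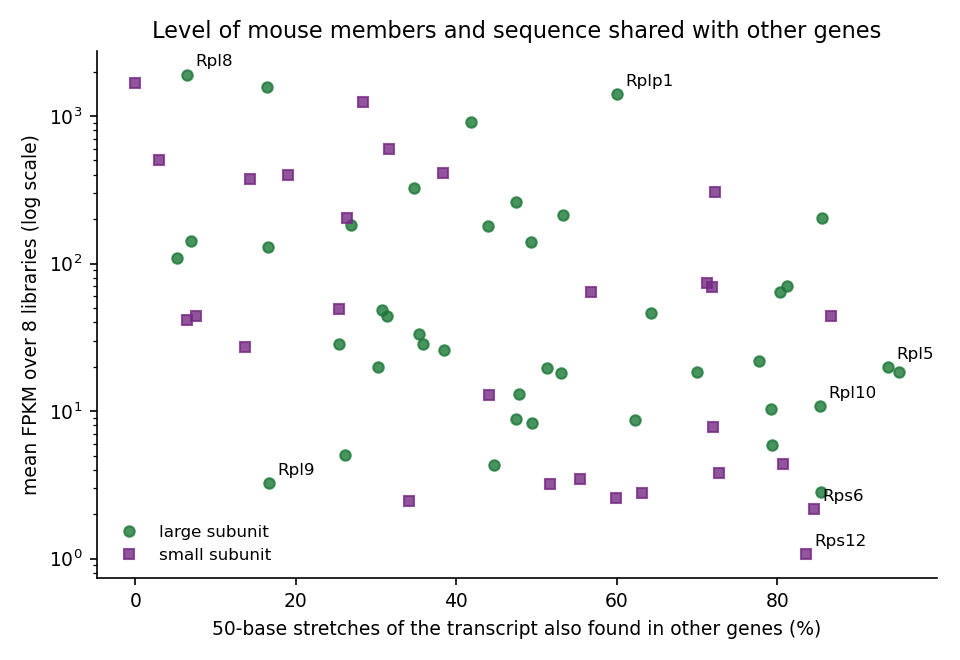
Mean FPKM over the 8 mouse libraries (y axis, log scale) against the percentage of 50-base stretches of the transcript that also occur in other genes (x axis), 1 point per member, coloured by subunit. Rpl8, with 6.49% shared, is at the top, and Rps12 and Rps6, with over 80% shared, are near the bottom, while Rplp1 at 60.0% stays high.

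The diet comparisons asked whether valine restriction moved these mRNAs. No member passed in any of them, and 0% of the 9943 tested mouse genes passed for 0, 0.4 or 0.8 g/kg against 8 g/kg in either direction. With 0 against 8 g/kg, 3 large-subunit genes were higher and 1 lower at an unadjusted p under 0.05, and 0 small-subunit genes in either direction, against 4.79% higher and 5.52% lower of all tested genes. With 0.4 against 8 g/kg, 1 and 7 large-subunit genes were higher and lower, and 0 and 3 small-subunit genes, against 3.08% and 7.57%. With 0.8 against 8 g/kg, 1 and 1 large-subunit genes and 0 and 2 small-subunit genes were higher and lower, against 1.15% and 3.21%. The slope over the ranked diets and the F test between the 3 restricted diets also called 0 genes. At an unadjusted p under 0.05 the slope had 2 positive and 4 negative members, against 5.90% and 6.37% of all genes, and the F test had 5 members, against 3.78%. The 3 comparisons share the 2 control libraries, so their values are given side by side.

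The mean summed level was lowest on the 0.4 g/kg diet, though 1 library with 0 g/kg came close to it. Large-subunit FPKM summed to 8741 (TALL2) and 7881 (TALL3) with 0 g/kg, 7533 and 7847 with 0.4 g/kg, 8270 and 8653 with 0.8 g/kg, and 8722 and 8739 with 8 g/kg. In FPKM both 0.4 g/kg libraries lay below the other 6, of which TALL3 with 0 g/kg was nearest. Small-subunit FPKM summed to 6701 and 6019 with 0 g/kg, 5639 and 5943 with 0.4 g/kg, 6208 and 6241 with 0.8 g/kg, and 6183 and 6510 with 8 g/kg. Other scalings did not keep that order of libraries. With median-of-ratios scaling the large-subunit sum of TALL3 with 0 g/kg was 7726, below 7744 and 7912 with 0.4 g/kg, and its small-subunit sum was 5901, between 5797 and 5992 with 0.4 g/kg. As a share of the FPKM sum and of the recovered reads, TALL3 with 0 g/kg was at 2.40% and 0.865% in the large subunit, between the 0.4 g/kg libraries (2.39% and 2.42% of FPKM, 0.857% and 0.875% of reads). The median log2 fold change over 8 g/kg of large-subunit genes was -0.02 with 0 g/kg, -0.19 with 0.4 g/kg and -0.04 with 0.8 g/kg, against -0.01, -0.05 and -0.04 over all tested genes. In the small subunit it was 0.02, -0.14 and -0.04. With 0.4 g/kg both libraries lay below both controls in 23 large-subunit and 15 small-subunit genes, against 31.8% of all tested genes, and above both in 3 and 1, against 16.9%. With 0 g/kg the same counts were 10 and 5 genes below, against 22.9%, and 9 and 6 above, against 19.1%. With 0.8 g/kg they were 9 and 7 below, against 22.5%, and 5 and 2 above, against 10.6%.

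Of the 8 libraries, 1 held the lowest value most often. TALL2 with 0.4 g/kg, the most deeply read library, held the lowest of the 8 values for 19 large-subunit and 14 small-subunit genes, and TALL3 with 0.4 g/kg did so for 5 and 1. Without TALL2 the median at 0.4 against 8 g/kg was -0.11 in the large and -0.08 in the small subunit, and without TALL3 it was -0.23 and -0.20.

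**Figure D4:**
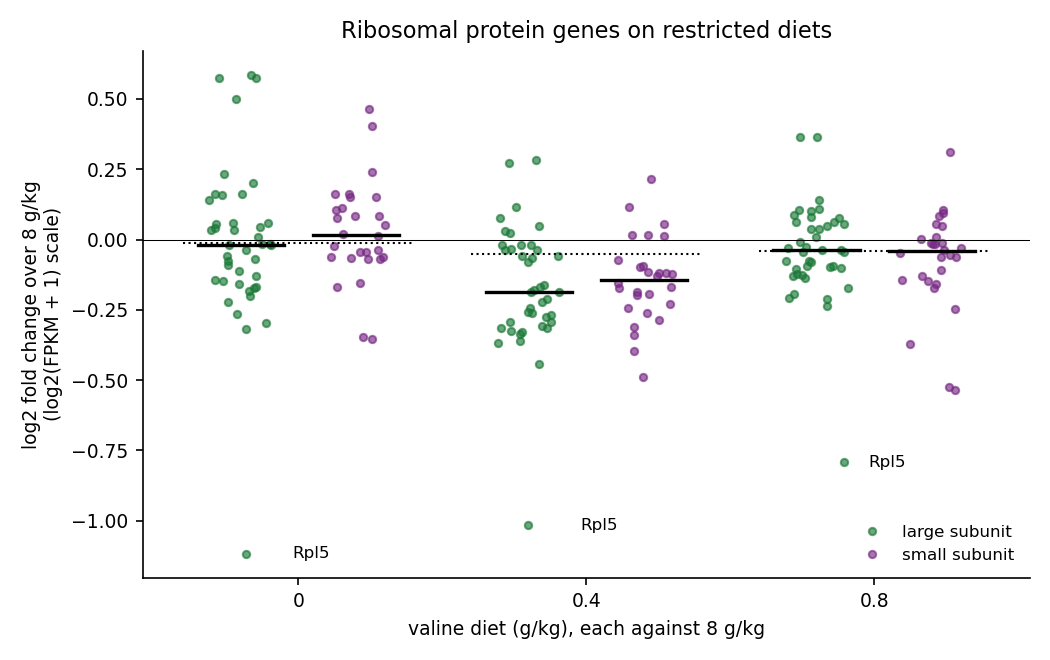
Log2 fold change of each mouse ribosomal protein gene on the 0, 0.4 and 0.8 g/kg diets, each against 8 g/kg (y axis, log2(FPKM + 1) scale, 2 libraries per diet), 1 point per gene, with the members' median as a solid line and the median of all tested genes as a dotted line. Medians lie near 0 at 0 and 0.8 g/kg and at -0.19 and -0.14 with 0.4 g/kg, and Rpl5 lies below all other members in each diet, at -1.12, -1.02 and -0.79.

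Rpl5 stood apart from the other members on every restricted diet. It was at 16.5 (TALL2) and 12.0 (TALL3) FPKM with 0 g/kg, 17.6 and 13.1 FPKM with 0.4 g/kg, 17.3 and 18.5 FPKM with 0.8 g/kg, and 34.0 and 29.6 FPKM with 8 g/kg. All 6 libraries of restricted diets lay well below both controls. The log2 fold changes were -1.12, -1.02 and -0.79 (SE 0.193 each) for 0, 0.4 and 0.8 g/kg, with limma p of 0.00106, 0.00174 and 0.00594. None passed after Benjamini-Hochberg adjustment in limma, with adjusted p of 0.215, 0.389 and 0.998, and none of 18 alternative settings per comparison passed, with adjusted p from 0.171 upwards. The reads behind these values were 650 and 355 with 0 g/kg, 1423 and 466 with 0.4 g/kg, 585 and 1006 with 0.8 g/kg, and 1512 and 1002 with 8 g/kg. Rpl5 lies at chr5:107900502-107909005 on the plus strand, and 93.8% of its 50-base stretches also occur in 15 other genes, 14 of them pseudogenes. Its partner Rpl11 (62.2% shared) was at 8.35 and 10.7 FPKM with 0 g/kg, 7.05 and 7.94 FPKM with 0.4 g/kg, 8.50 and 8.69 FPKM with 0.8 g/kg, and 8.56 and 9.94 FPKM with 8 g/kg, with groups that overlapped at 0 and 0.8 g/kg.

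Of the 69 members, 6 lay below both controls in all 6 restricted libraries (Rpl5, Rpl7a, Rpl14, Rplp0, Rps6 and Rps21), against 11.4% of all tested genes, and 3 lay above both (Rpl9, Rpl31 and Rps23), against 4.73%. Neither share of the members exceeded that of all tested genes. Rps6 was at 1.84 and 2.39 FPKM with 0 g/kg, 1.77 and 1.88 FPKM with 0.4 g/kg, 1.61 and 1.87 FPKM with 0.8 g/kg, and 3.09 and 2.84 FPKM with 8 g/kg. Its log2 fold changes were -0.35, -0.49 and -0.54, with limma p of 0.0870, 0.0300 and 0.0210 and adjusted p of 0.431 or more. It rested on 30 to 79 reads per library. Rpl31, which lines the exit of the peptide tunnel, was at 18.5 and 18.7 FPKM with 0 g/kg, 20.4 and 18.2 FPKM with 0.4 g/kg, 19.8 and 21.1 FPKM with 0.8 g/kg, and 14.8 and 16.6 FPKM with 8 g/kg. Its fold changes were 0.23, 0.28 and 0.36. Rplp0, the stalk protein, was at 929 and 856 FPKM with 0 g/kg, 801 and 835 FPKM with 0.4 g/kg, 882 and 953 FPKM with 0.8 g/kg, and 983 and 1022 FPKM with 8 g/kg, with fold changes of -0.17, -0.29 and -0.13.

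TALL3 with 8 g/kg held the highest of the 8 values for 11 large-subunit and 6 small-subunit genes, and TALL2 with 0 g/kg for 8 and 5. TALL3 with 0 g/kg, the library with the fewest recovered reads, did so for 6 and 8 genes. Rpl10 was at 11.6 and 18.1 FPKM with 0 g/kg, 8.80 and 9.80 FPKM with 0.4 g/kg, 9.81 and 8.93 FPKM with 0.8 g/kg, and 10.4 and 8.57 FPKM with 8 g/kg. Rps27a was at 7.98 and 11.4 FPKM with 0 g/kg and between 6.64 and 7.74 FPKM in the other libraries. Rpl36a (2.74 and 5.02 FPKM with 0 g/kg), Rpl9 (3.52 and 4.99 FPKM), Rps13 (2.74 and 4.48 FPKM) and Rpl19 (6.62 and 8.75 FPKM) also had their highest value in TALL3 with 0 g/kg. Rpl36a rested on 27 to 88 reads per library and Rps13 on 76 to 169. TALL2 with 0 g/kg was the next highest for Rpl10, Rps27a, Rpl9 and Rps13, and for Rpl19 it was TALL3 with 0.8 g/kg, at 8.10 FPKM. They include most of the members with the highest fold changes at 0 against 8 g/kg, which were 0.59 for Rpl19, 0.58 for Rpl36a and 0.57 for Rpl10 in the large subunit and 0.46 for Rps13, 0.40 for Rps27a and 0.24 for Rps23 in the small subunit. None passed, with limma adjusted p of 0.439 or more. Rps23 had its highest value, 4.29 FPKM, in TALL3 with 0.8 g/kg instead. TALL3 with 0 g/kg had 332 FPKM of summed neutrophil markers and TALL2 with 0 g/kg 562 FPKM, and their part in these values was not tested.

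**Figure D5:**
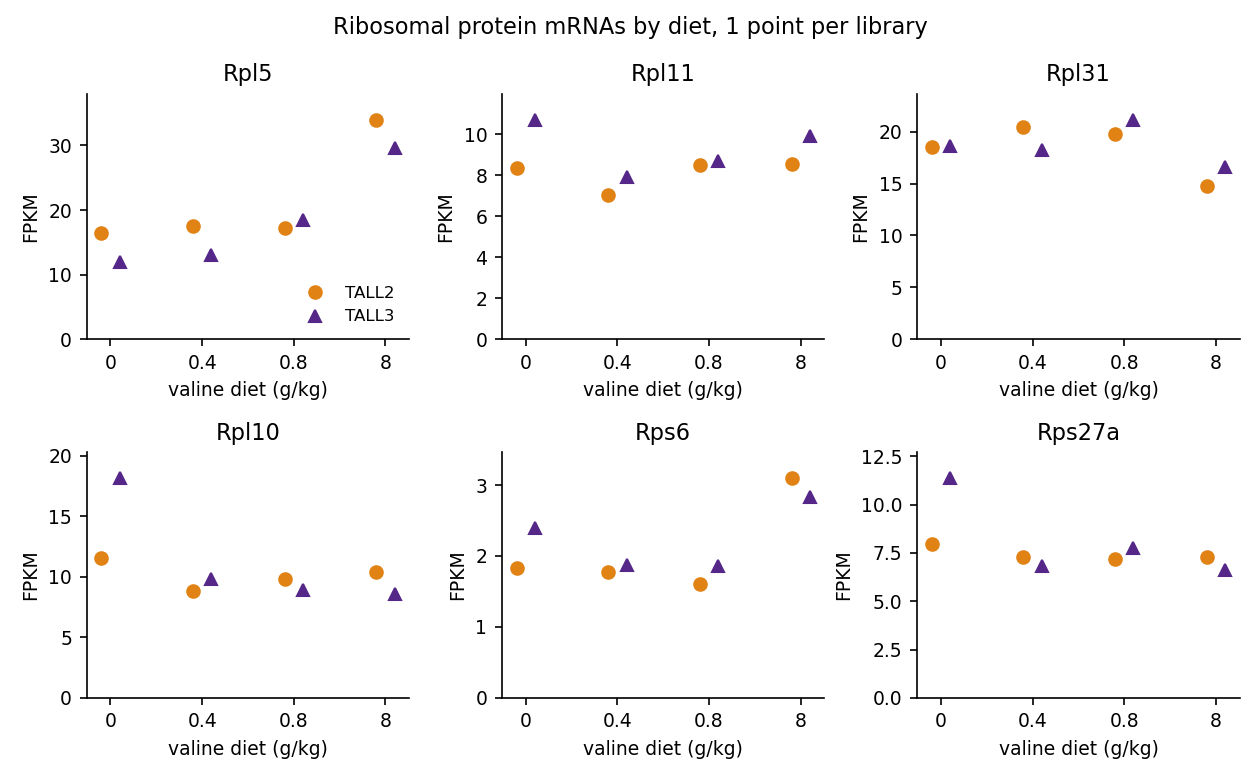
FPKM of 6 mouse members in each library (y axis, from 0) by diet in g/kg valine (x axis), with TALL2 and TALL3 as separate symbols. Rpl5 is at 12.0 to 18.5 FPKM on restricted diets and at 29.6 and 34.0 FPKM with 8 g/kg, Rpl31 lies above and Rps6 below both controls in all restricted libraries, and Rpl10 and Rps27a are highest in TALL3 with 0 g/kg.

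The remaining extremes were smaller. With 0 g/kg the lowest fold changes after Rpl5 were -0.32 for Rpl7a and -0.30 for Rpl13 in the large subunit, and those of the small subunit were -0.35 for Rps6, -0.35 for Rps25 and -0.17 for Rps27l, a paralogue of Rps27 that p53 induces. With 0.4 g/kg Rpl13 was at -0.44 and Rpl30 at -0.37, Rps25 at -0.40 and Rps27 at -0.34, while Rps23, Rps27l, Rpl36a and Rpl9 were at 0.21, 0.12, 0.27 and 0.12. With 0.8 g/kg Rpl27 and Rpl7a were at -0.24 and -0.21 and Rps27 at -0.37, while Rpl19, Rpl9, Rpsa and Rps15 were at 0.36, 0.14, 0.11 and 0.10. Among the abundant members, Rpl8 was at 2051 and 1804 FPKM with 0 g/kg and 1995 and 2060 FPKM with 8 g/kg. Rps26 was at 417 and 373 FPKM with 0 g/kg and 456 and 423 FPKM with 8 g/kg, with a log2 fold change of -0.16, and Rps14 at 1471 and 1159 FPKM with 0 g/kg and 1166 and 1358 FPKM with 8 g/kg.

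TALL3 libraries were also set against TALL2 libraries, 4 of each, with the diet as a covariate. No member passed and 0 had an unadjusted p under 0.05, against 8.24% higher and 6.50% lower of all tested genes at that level. After adjustment 0% of all genes were higher and 0.0101%, a single gene, lower. The members' log2 fold changes lay between -0.23 (Rpl5) and 0.21 (Rps7), with medians of 0.02 in the large and 0.05 in the small subunit, against 0.02 over all tested genes. Those of all genes had an SD of 0.35 and those of the members an SD of 0.09.

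Over the 8 mouse libraries, the Pearson correlation of a member with the mean of the other members of its subunit was at least 0.5 in 22 of 41 large-subunit and 14 of 28 small-subunit genes, with medians of 0.54 and 0.50. These correlations include differences in scale that all genes of a library share. Among the closest were Rpl18 (0.86) in the large subunit and Rps18 (0.86) and Rps21 (0.78) in the small subunit. The most distant were Rpl31 (-0.46) and Rpl15 (-0.36), and Rps27l (-0.41) and Rps23 (-0.20). Rpl5 had 0.22.

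Across the 2 systems, 61 members were tested in both tables. Of these, 29 were negative for gSI against DMSO and for 0 against 8 g/kg, 47 for gSI and 0.4 g/kg, and 39 for gSI and 0.8 g/kg. A further 28, 10 and 18 were negative for gSI and positive on these diets, so nearly all were negative for gSI whatever their sign on the diet. The Spearman correlations between the log2 fold changes for gSI and for the diets across genes were -0.14, -0.22 and -0.04 for 0, 0.4 and 0.8 g/kg, as descriptions. RPL5 had -0.31 with gSI, and Rpl5 had -1.12 with 0 g/kg. RPL12 had -0.87 with gSI and Rpl12 -0.14 with 0 g/kg.

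Of the other translation genes, none passed on any diet. With 0 against 8 g/kg the medians were -0.04 for 22 other TOP mRNAs, -0.08 for 36 initiation factors, -0.06 for 10 elongation and release factors, -0.0048 for 12 chaperones, -0.10 for 17 TOP regulators and -0.05 for 15 genes of ribosome collisions, against -0.01 over all tested genes. Eif4ebp1, which GCN2 signalling through ATF4 induces, had a log2 fold change of 2.46 (SE 0.705, limma adjusted p = 0.392). Eif4a2, an initiation helicase, had 0.52 (adjusted p = 0.410).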

How the data were processed

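The authors deposited FPKM per gene and library, in 1 table per species. STAR, edgeR, hg19 and mm10 are named in the submitters' processing notes with neither version nor role, and the labels' protocols describe a directional kit. The sources used here do not give the annotation or the tool that counted reads. Both tables were tested apart.

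FPKM of a library stand in whole-number ratios (relative tolerance 1e-11), from which reads and lengths were estimated for every listed gene. A whole length followed directly for 95.8% of human and 99.9% of mouse genes. Reads of a further 489 and 13 genes were scaled up until it did. Libraries of a group differed beyond counting noise (chi-square per degree of freedom 5.73 to 93.4).

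Genes averaging at least 1 FPKM were tested in limma 3.58.1 (R 4.3.3, variance trend) on log2(FPKM + 1), two-sided, with Benjamini-Hochberg adjustment over all of them and a threshold of 0.05. One fit held all diets. Tables were handled in Python 3.11.15, and the fits were tested on simulated data. Members, gene lists and the rule for named genes were chosen with earlier results of these data known. The rule takes, per comparison and subunit, the 3 highest and 3 lowest fold changes, calls against the majority, the highest FPKM, the 2 most and 2 least alike members and a set of well-studied genes, and from other lists the 2 largest changes. Alternatives changed the pseudocount (0.1, 5), the filter (none, 5 FPKM), the scaling (median of ratios, quantile), the trend, a replicate block, the diets in the fit and each library. Voom on recovered reads was added after seeing the data. Mouse coordinates are GRCm38. Human coordinates and sequences were not analysed here, and some genes are not reported here.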

Additional observations from a re-analysis of the deposited data

How the results depend on the processing

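Of 3240 alternative values for named genes, 3220 kept their side of the threshold (3074 with the same sign, and 146 with the other sign, called in neither), 14 lost the call, 5 gained it and 1 reversed: RPL23 was at 0.13 (adjusted p = 0.0494) under quantile normalisation. Every call that was lost, gained or reversed was in gSI against DMSO. Most of the 3240 values belong to mouse comparisons, in which no member passed to begin with, so the pooled count says little about the human calls. For gSI against DMSO, the large-subunit median was -0.35 with a pseudocount of 5, -0.25 under quantile normalisation and -0.31 with voom. The small-subunit median was -0.44 with the 5 FPKM filter, -0.22 under quantile normalisation and -0.27 with voom. Large-subunit genes that rose numbered 1 under quantile normalisation, and small-subunit ones 0 with the 5 FPKM filter, which drops RPS26, and 3 with voom (RPS26, RPS15, RPS7). Of all 6679 tested genes 1981 rose under quantile normalisation and 2767 with voom, and 415 of 2051 rose with the 5 FPKM filter. Leaving out single libraries gave medians of -0.49 to -0.38 in the large and -0.45 to -0.31 in the small subunit. The ratio of the percent of the FPKM sum ran from 0.734 to 1.02 in the large and from 0.731 to 1.03 in the small subunit, above 1 only without DMSO replicate 2. For 0 against 8 g/kg, the small-subunit median was -0.042 under quantile normalisation. Single libraries left out gave large-subunit medians of -0.068 to 0.027, ratios of summed FPKM of 0.903 to 1.001 and 0.948 to 1.06, and ratios of the percent of 0.894 to 1.002 and 0.939 to 1.06, for the large and the small subunit. For 0.4 against 8 g/kg, medians were -0.13 and -0.088 with median-of-ratios scaling, -0.14 in the large subunit under quantile normalisation, and -0.23 to -0.11 and -0.20 to -0.082 with libraries left out. For 0.8 against 8 g/kg the large-subunit median was 0.0091 with median-of-ratios scaling, and the small-subunit one -0.092 to -0.030 with libraries left out. TALL3 against TALL2 medians were 0.0034 to 0.053 and 0.0037 to 0.079, and without either 0.4 g/kg library 293 of all genes passed, with 0 members. The cause of these shifts was not tested. No mouse member passed under any alternative. Whether the replicate numbers pair the samples is not stated in the labels. Deviations of same-numbered libraries correlated from -0.17 to 0.74 between diets (KOPTK1: 0.26), a range too wide to decide it. With a replicate block 57 human members passed, against 56, RPS25 being added, and 0 mouse members. Of all 6679 tested human genes 3705 passed with the block, against 3547 without it. Members with under 100 reads per library, 3 large-subunit and 7 small-subunit genes in mouse, are limited most by depth.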

Other observations

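Mouse Rpl13a carried no symbol in the deposited table and was named from a reference list, so the symbol rule did not take it. It was at 91.4 (TALL2) and 95.9 (TALL3) FPKM with 0 g/kg, 97.6 and 94.7 FPKM with 0.4 g/kg, 87.7 and 105 FPKM with 0.8 g/kg, and 57.8 and 80.0 FPKM with 8 g/kg. All 6 restricted libraries lay above both controls, with log2 fold changes of 0.45, 0.49 and 0.49 and limma p of 0.0332, 0.0245 and 0.0250. None passed after adjustment in limma (adjusted p = 0.419 or more).

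Rack1, a small-subunit scaffold, was at 613 and 576 FPKM with 0 g/kg and 584 and 621 FPKM with 8 g/kg.

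Of the 8 human genes left out for low FPKM, RPL17 was at 0.903 and 0.952 FPKM in gSI libraries, against 0.481 and 0.443 FPKM in DMSO libraries. RPL39L, a paralogue of RPL39, was at 0.264 and 0.305 FPKM in gSI libraries, against 0.378 and 0.403 FPKM in DMSO libraries. RPL17 rested on 42 to 173 reads per library and RPL39L on 484 to 820. Both were left out of the main tests, and both are named with their values already seen.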
